A study of Rattus norvegicus with 8 samples.

Results

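The Homer, Dlg and Shank genes encode scaffold proteins that hold glutamate receptors, adhesion proteins and signalling enzymes together under the postsynaptic membrane. Their probes were taken as every probe on the array, besides controls, whose gene name is Homer1, Homer2, Homer3, Dlg1, Dlg2, Dlg3, Dlg4, Shank1, Shank2 or Shank3, and the older spellings Dlgh1 to Dlgh4 were also accepted. This gave 13 probes of 41012 and 10 genes of 12485 distinct gene names. Homer1, Dlg4 and Shank2 had 2 probes each and the other genes 1.

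RNA came from neurons of the CA3 subfield of the hippocampus, cut by laser from frozen brain sections of male Sprague-Dawley rats and hybridised to 8 Agilent whole-genome arrays of 1 colour. The 4 groups had 2 arrays each: naïve rats without any procedure, rats with a sham injury, and surviving and dying neurons of rats with a moderate fluid percussion injury of the brain. Sham and injured rats were both taken at 24 h. Dying neurons were those stained by Fluoro-Jade, a dye for degenerating neurons, and were cut with the smallest laser spot, while surviving neurons were unstained cells lying next to them. Each array of surviving or dying neurons held a pool of about 600 neurons from several rats. The labels tie no pool of any group to particular rats, and p-values therefore measure only the spread between the arrays.

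Homer proteins bind a short proline-rich stretch of metabotropic glutamate receptors, of calcium release channels of the endoplasmic reticulum and of Shank, and their long forms join into multimers while the short form of Homer1, made after neuronal activity, cannot. Dlg proteins are membrane-associated guanylate kinases whose PDZ domains hold NMDA receptors, potassium channels, neuroligins and the auxiliary subunits of AMPA receptors. Shank proteins lie deeper in the density and tie the Dlg layer, through Dlgap adaptors, to Homer and to actin.

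Levels are given as the log2 of a probe's processed signal over the median of all probes on its array. The number of probes marked by the scanner software as well above background was 23151 and 22397 for naïve, 20923 and 20198 for sham, 29391 and 27111 for surviving and 24167 and 28094 for dying neurons. Dying replicate 1 stood apart from the other arrays of injured rats, with a median signal of 19.4 before scaling against 53.0 on dying replicate 2, and the 2 dying replicates differed from each other with an SD across probes of 1.18 in log2, against 0.54 to 0.74 in the other groups. Where a probe was not above background on this array, its difference between surviving and dying neurons is also given without it. All arrays of injured rats were on 1 slide, with its own scan and extraction protocol, and all arrays of uninjured rats on another, and any difference from sham may therefore be one of slide as well as of injury, which cannot be told apart. The differences between surviving and dying neurons and between sham and naïve rats lie within a slide.

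Of the 13 probes, 4 were above background on all 8 arrays (Homer1 NM_031707, Shank1, Shank2 NM_133441 and Shank3), 1 on none (Dlg1), and 9 probes of 8 genes on 2 of 2 arrays in some group. Only these 9 could be tested, and they include probes that entered through the group in which they were high. Differences are between group means on the log2 scale with the standard error (SE) of limma, and a probe is called where the p adjusted over all probes tested was under 0.05. The median difference of all probes tested was itself 0.15 for surviving minus dying, -0.43 for surviving minus sham, -0.47 for dying minus sham and 0.41 for sham minus naïve, so that differences are also given relative to that median.

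**Figure D1:**
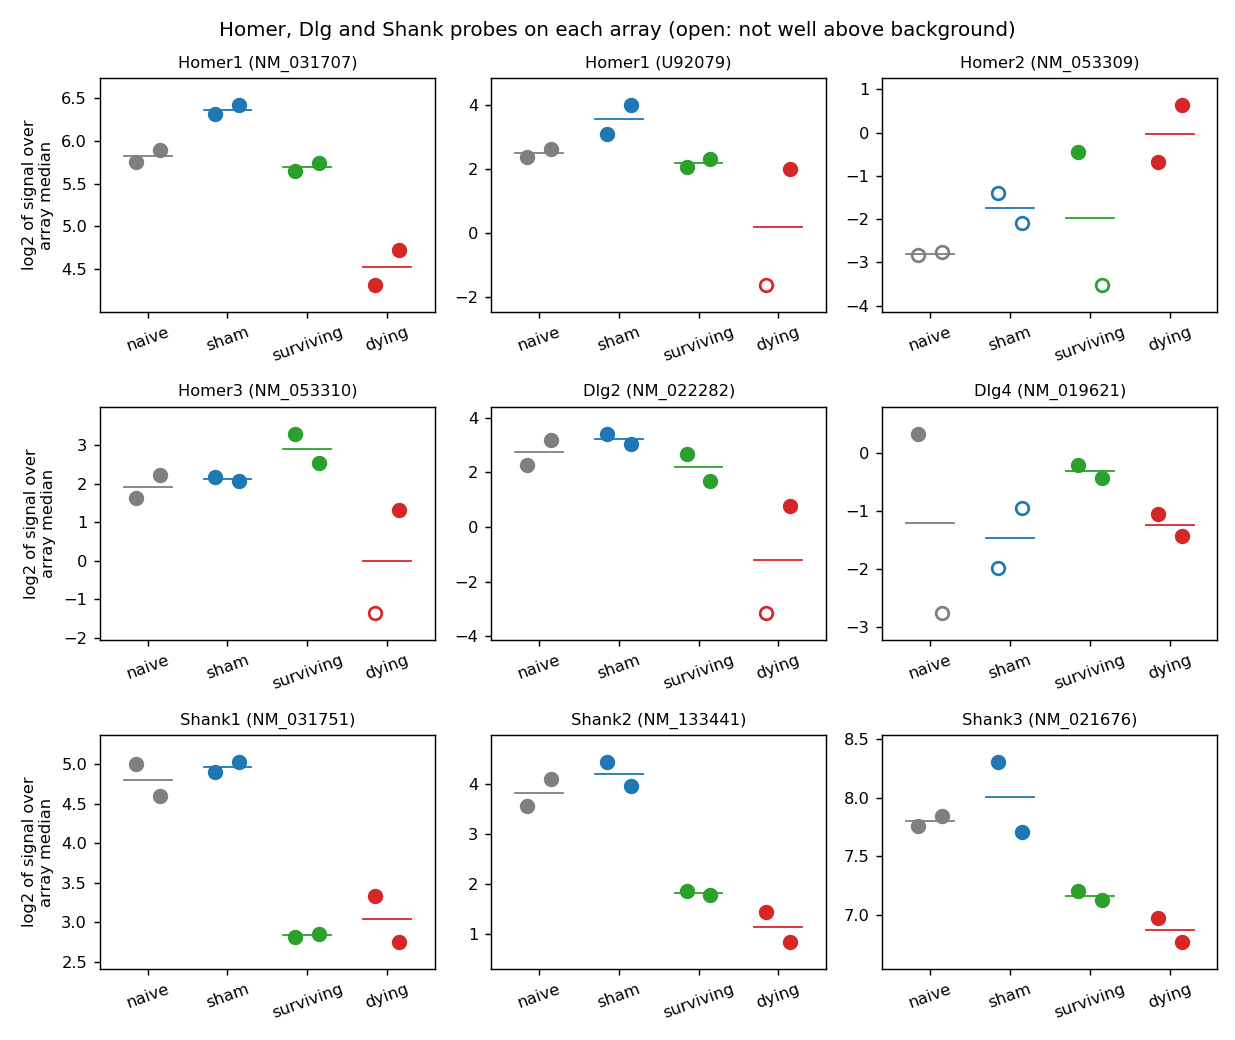
Log2 of signal over the array median for the 9 probes that could be tested, with 1 point per array, a line at each group mean and open points where the probe was not well above background. Homer1 (NM_031707) was at 4.32 and 4.73 in dying neurons and at 5.65 to 6.41 elsewhere, and Shank1 at 2.76 to 3.34 in the arrays of injured rats and at 4.60 to 5.03 in the others.

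Homer1 links metabotropic glutamate receptors to intracellular calcium stores, and its probe of transcript NM_031707 was lowest in dying neurons. Its log2 level was 5.75 and 5.89 for naïve, 6.31 and 6.41 for sham, 5.65 and 5.74 for surviving and 4.32 and 4.73 for dying neurons. Both dying arrays lay below the other 6, both sham arrays lay above all others, and the surviving arrays lay just under the naïve ones. Homer1 fell in dying neurons against sham, by a difference of -1.83 (SE 0.45, adjusted p = 0.0163), a 3.57-fold lower signal, or -1.36 relative to the median of all probes. Without dying replicate 1 the difference was -1.63 (adjusted p = 0.0398). Summed markers of pyramidal neurons were also lower in dying neurons, at 8.44 and 9.96 against 11.65 and 11.33 in sham. A smaller share of neurons among the captured cells, less RNA per neuron and the slide cannot be told apart here and were not tested. The call was lost without either sham array (differences of -1.89 and -1.78), with normexp background correction (-1.835, adjusted p = 0.473) and under 4 other scalings, all with the same direction. Under these 4 scalings the difference shrank to between -1.11 and -0.625 (adjusted p = 0.0620 to 0.194). The difference between surviving and dying neurons was 1.17 (SE 0.45, adjusted p = 0.209) and 0.97 without dying replicate 1 (adjusted p = 0.410). Surviving minus sham was -0.66 (SE 0.45, adjusted p = 0.323), and turned to between 0.11 and 0.46 with normexp and under the same 4 scalings. Relative to the median of all probes it was -0.24, and turned to between 0.07 and 0.37 with quantile normalization, normexp, no filter on background and the filter on all 4 arrays.

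The other Homer1 probe, of the transcript U92079, was above background on 7 arrays. It stood at 2.35 and 2.60 for naïve, 3.1 and 3.98 for sham, 2.04 and 2.32 for surviving and -1.63 and 1.99 for dying neurons, where replicate 1 was not above background. Dying replicate 2 lay just under the surviving arrays, and the low mean of the group came from replicate 1. Against sham the probe fell in dying neurons, by a difference of -3.36 as measured (SE 1.02, adjusted p = 0.0329) and of -3.23 with dying replicate 1 taken at its lowest signal above background, and without this array the difference was -1.55 (adjusted p = 0.0816). The adjusted p was 0.0945 without sham replicate 1, 0.139 without sham replicate 2, 0.0505 with a floor of 0.1, 0.0528 with only the 4 arrays compared, and 0.0940 to 0.449 with normexp and the 4 scalings that also ended the call of the other probe. Surviving and dying neurons differed on this probe without a call (adjusted p = 0.312), by 0.19 without dying replicate 1 (adjusted p = 0.922) and by 3.80 without dying replicate 2 (adjusted p = 0.0170), where the remaining dying array did not measure it.

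Within an array, the NM_031707 probe minus the U92079 probe was 3.40 and 3.29 for naïve, 3.21 and 2.43 for sham, 3.61 and 3.43 for surviving and 5.95 and 2.74 for dying neurons. The 7 arrays on which both probes were above background thus ran from 2.43 to 3.61, with dying replicate 2 inside that range. On dying replicate 1 the value is a difference from a probe at background. Which forms of the Homer1 transcript the probes match is not given in the sources used here.

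Homer3, which shares the binding domain of Homer1, differed from it in being highest in surviving neurons. Its log2 level was 1.62 and 2.23 for naïve, 2.16 and 2.06 for sham, 3.29 and 2.53 for surviving and -1.36 and 1.32 for dying neurons, of which replicate 1 was not above background. Both surviving arrays were above the other 6, and both dying arrays below them. Surviving minus dying was 2.93 (SE 0.83, adjusted p = 0.147) or 2.77 relative to the median of all probes, and 1.59 without dying replicate 1 (adjusted p = 0.326). Surviving minus sham was 0.80 (SE 0.83, adjusted p = 0.517), and 0.41 and 1.18 without surviving replicate 1 and 2. Dying minus sham was -2.13 (SE 0.83, adjusted p = 0.0713), and -0.79 without dying replicate 1. Without dying replicate 2 the probe was called between surviving and dying neurons (4.26, adjusted p = 0.0158) and between dying neurons and sham (-3.47, adjusted p = 0.00552), again against an array that did not measure it.

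Homer2 was above background on both dying arrays, on surviving replicate 1 and on no array of naïve or sham rats. Its log2 level was -0.67 and 0.63 for dying neurons and -0.45 and -3.51 for surviving neurons, and the control arrays stood at -1.39 and -2.08 for sham and at -2.83 and -2.76 for naïve rats. Surviving replicate 1 lay between the dying arrays, so that these groups overlapped. With the control arrays taken at their lowest signal above background, dying neurons lay 1.15-fold above sham. They lay 1.75-fold above naïve, a pair that was not tested. Such a level is no strict limit, since Dlg3 on sham replicate 2 was not above background at -0.088, over the level of that array (-0.145). The test against sham used the values as measured (1.71, adjusted p = 0.172), in which background sets the sham arrays. Homer2 entered that test through the dying group alone. Both folds set the dying mean of -0.02 against the mean, over the arrays of the dimmer group, of the lowest signal well above background or the probe's own signal, whichever is higher. Against sham the fold rests on dying replicate 2, since dying replicate 1 (-0.67) lay below the sham value of -0.23 set in this way. Surviving minus dying was -1.96 as measured (SE 0.95, adjusted p = 0.288). It was -1.02 with surviving replicate 2, which was not above background, taken at its lowest signal above background. The difference was -0.43 without surviving replicate 2, and -2.61 and -1.31 without dying replicate 1 and 2. Without surviving replicate 1 it was -3.49, where the surviving array left did not measure Homer2.

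Dlg2, whose protein is a scaffold of NMDA receptors and potassium channels, was the Dlg gene above background on the most arrays (7). Its log2 level was 2.27 and 3.20 for naïve, 3.42 and 3.05 for sham, 2.67 and 1.71 for surviving and -3.16 and 0.76 for dying neurons, with replicate 1 of the dying group not above background. Both dying arrays lay below all others, and the surviving arrays overlapped those of naïve rats. Dlg2 fell in dying neurons against sham, by 11.6-fold with dying replicate 1 taken at its lowest signal above background (a difference of -3.54). That level (-1.368) is no strict limit, since Homer3 lay at -1.356 on dying replicate 1 without being above background. The test used the values as measured (-4.43, SE 1.12, adjusted p = 0.0175), in which background sets that array. The probe was still called without dying replicate 1 (-2.47, adjusted p = 0.0392), but not without sham replicate 1 (0.0922) or sham replicate 2 (0.0639), with normexp (0.448), with quantile normalization (0.0577), or scaled to the median of probes above background on all arrays (0.0725). Surviving minus dying was 3.39 as measured (SE 1.12, adjusted p = 0.170), 2.49 with dying replicate 1 at its lowest signal above background and 1.43 without dying replicate 1. It was called only without dying replicate 2 (adjusted p = 0.0148), where the dying array left did not measure Dlg2. Surviving minus sham was -1.04 (SE 1.12, adjusted p = 0.529), -1.53 and -0.56 without surviving replicate 1 and 2, and 0.14 with normexp.

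Dlg4, the most studied scaffold of the excitatory synapse, has 2 probes for NM_019621, and both were dim. The probe above background on 5 arrays stood at -0.20 and -0.42 in surviving, -1.04 and -1.43 in dying neurons and 0.34 in naïve replicate 1, and was not above background at -2.76 in naïve replicate 2 and at -1.99 and -0.94 in sham. Both surviving arrays were above both dying arrays, with a difference of 0.92 (SE 0.93, adjusted p = 0.613). No fold against sham is given, because it was under 1 with the sham arrays taken at their lowest signal above background. Its other probe was above background on dying replicate 2 alone and ran from -3.46 to -1.32. Dlg1 was above background on no array and ran from -4.22 to -2.27. Dlg3 ran from -4.40 to -0.09 and was above background at -0.53 on naïve replicate 2 and at -1.33 on surviving replicate 2.

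A pair of further probes lies outside the rule on gene names and was chosen by description after the values were seen. TC528618, described as a Homer1 isoform, was above background on no array and ran from -4.47 to -1.88. The transcript cluster TC537662, whose description names an isoform of the Dlg4 protein, was above background on all 8 arrays, at 6.93 and 7.46 for naïve, 7.99 and 7.64 for sham, 6.21 and 5.94 for surviving and 6.08 and 5.72 for dying neurons. All 4 arrays of injured rats lay below the 4 others, and surviving and dying neurons overlapped. Surviving minus sham was -1.75 (SE 0.48, adjusted p = 0.0455) and dying minus sham -1.92 (SE 0.48, adjusted p = 0.0171). The former call was lost in each fit without an array (adjusted p = 0.151 to 0.282), with normexp (0.965), under every other scaling (0.0574 to 0.111) and under both other filters (0.0520 and 0.0584), and the latter with normexp (0.456), without sham replicate 1 (0.133) or 2 (0.0762), and with quantile normalization (0.0621).

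In Homer1, Homer3 and Dlg2 every dying array lay below every other array and surviving minus dying kept its sign under all scalings, and their promoter sequences are shown for that reason. The same held for Shank2, which has no promoter in the table. Both dying arrays lay below the other 6 in 6 of the 9 member probes tested, and in 20.5% of all 27393 probes. The RefSeq table (build GRCr8) holds promoters of 6 members, and none of Homer2, Dlg3, Shank1 or Shank2. The windows are 300 bases around the annotated start, written 5′ to 3′ on the strand of the gene: Homer1 at chr2:26278762-26279061 on the plus strand, Homer3 at chr16:19174549-19174848 on the minus strand and Dlg2 at chr1:154539421-154539720 on the plus strand. Capitals mark CCAAT or TATAAA on either strand, ATTGG and TTTATA being their complements.
Homer1: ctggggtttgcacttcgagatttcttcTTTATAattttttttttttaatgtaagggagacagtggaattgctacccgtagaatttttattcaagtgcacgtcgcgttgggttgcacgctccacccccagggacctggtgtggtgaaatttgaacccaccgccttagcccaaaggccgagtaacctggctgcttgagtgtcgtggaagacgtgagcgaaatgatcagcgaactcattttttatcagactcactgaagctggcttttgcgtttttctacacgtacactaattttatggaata
Homer3: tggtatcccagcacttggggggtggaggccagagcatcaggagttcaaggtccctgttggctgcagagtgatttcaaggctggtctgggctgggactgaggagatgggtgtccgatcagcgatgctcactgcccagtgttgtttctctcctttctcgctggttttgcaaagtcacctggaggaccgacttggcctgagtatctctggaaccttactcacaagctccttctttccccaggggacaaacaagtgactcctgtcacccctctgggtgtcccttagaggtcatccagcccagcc
Dlg2: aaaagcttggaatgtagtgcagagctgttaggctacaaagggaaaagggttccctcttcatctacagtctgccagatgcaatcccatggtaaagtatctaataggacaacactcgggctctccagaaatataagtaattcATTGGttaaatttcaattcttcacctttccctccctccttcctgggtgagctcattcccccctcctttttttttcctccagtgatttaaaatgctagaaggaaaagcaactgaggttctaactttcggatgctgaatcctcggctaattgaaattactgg
TATAAA was found 1 time in the Homer1 window, on the opposite strand, and CCAAT 1 time in that of Dlg2, also on the opposite strand, while the Homer3 window held 0 of either. Of all 33469 promoters of this length, 14.2% held TATAAA and 37.5% held CCAAT. Searched on both strands, TGACG, the core of the cyclic AMP response element, and GGGCGG, the GC box, were in none of the 3 windows, and in 21.2% and 33.1% of all promoters. The share of G and C was 44.7% for Homer1, 56.3% for Homer3 and 42.3% for Dlg2, against a median of 51.7%. These matches describe the letters only.

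Shank1, which binds Dlgap adaptors through its PDZ domain, had log2 levels of 5.01 and 4.60 for naïve, 4.91 and 5.03 for sham, 2.82 and 2.86 for surviving and 3.34 and 2.76 for dying neurons. All 4 arrays of injured rats lay below the 4 of naïve and sham rats, and the surviving arrays lay between the dying ones. Shank1 fell in surviving neurons against sham, by a difference of -2.13 (SE 0.47, adjusted p = 0.0260), and in dying neurons, by -1.92 (SE 0.47, adjusted p = 0.0163), which is -1.70 and -1.45 relative to the median of all probes. Surviving and dying neurons differed by -0.21 (SE 0.47, adjusted p = 0.840), and 0.08 without dying replicate 1. The study's own gene list gives Shank1, from another sequence entry, as higher in dying neurons. That entry is not among the probes found by gene name and is not reported here. The calls were lost without either sham array (adjusted p = 0.177 and 0.154 for surviving, 0.104 and 0.1 for dying neurons), and the former also without surviving replicate 1 (0.128) or 2 (0.149). They were also lost with normexp (0.859 and 0.444) and under 4 other scalings (0.0683 to 0.125), with the direction kept. Under these 4 scalings the differences shrank to between -1.35 and -1.13 for surviving and between -1.20 and -0.90 for dying neurons. With normexp they were -0.72 and -1.465.

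Shank2, a scaffold with the same domains, had the same step on its probe of NM_133441. Its log2 level was 3.55 and 4.09 for naïve, 4.43 and 3.96 for sham, 1.85 and 1.77 for surviving and 1.43 and 0.84 for dying neurons. Again the arrays of injured rats lay below all others, and here both dying arrays were also below both surviving ones. The probe fell against sham in surviving neurons, by a difference of -2.38 (SE 0.50, adjusted p = 0.0217), and in dying neurons, by -3.06 (SE 0.50, adjusted p = 0.00452), or -1.96 and -2.59 relative to the median of all probes. Under the 5 other scalings the differences ran from -2.58 to -1.41 for surviving and from -2.91 to -2.04 for dying neurons, and both calls held under each. Both were lost with normexp (adjusted p = 0.638 and 0.441), the surviving one in each fit without an array of these groups (0.109 to 0.186), and the dying one without sham replicate 1 (0.0534). Between surviving and dying neurons the difference was 0.67 (SE 0.50, adjusted p = 0.477), and 0.97 and 0.38 without dying replicate 1 and 2. The other Shank2 probe, of NM_201350, was above background on surviving replicate 1 alone and ran from -3.46 to -0.75.

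Shank3, whose protein anchors the density to actin, was above background throughout. Its log2 level was 7.76 and 7.85 for naïve, 8.30 and 7.71 for sham, 7.20 and 7.13 for surviving and 6.98 and 6.78 for dying neurons. The order was sham and naïve, which overlapped, then surviving, then dying neurons, and neither of the latter groups overlapped another. Surviving minus sham was -0.84 (SE 0.47, adjusted p = 0.232) and dying minus sham -1.12 (SE 0.47, adjusted p = 0.0844), which leaves -0.41 and -0.65 relative to the median of all probes. With a floor of 0.1 the latter was called (adjusted p = 0.0377). The former lay between 0.01 and 0.43 with quantile normalization, normexp, the deposited series values and the median of probes above background, and the latter turned to 0.05 with quantile normalization. Relative to the median of all probes the former stayed at -0.41 under the scalings that move all probes of an array alike, was -0.17 with quantile normalization, -0.10 with no filter on background, -0.01 with the filter on all 4 arrays and -0.16 without sham replicate 1, and turned with normexp (0.34). Surviving minus dying was 0.29 (SE 0.47, adjusted p = 0.769), -0.05 with quantile normalization and -0.06 scaled to RefSeq probes, of which only the former turned relative to the median of all probes (-0.12).

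**Figure D2:**
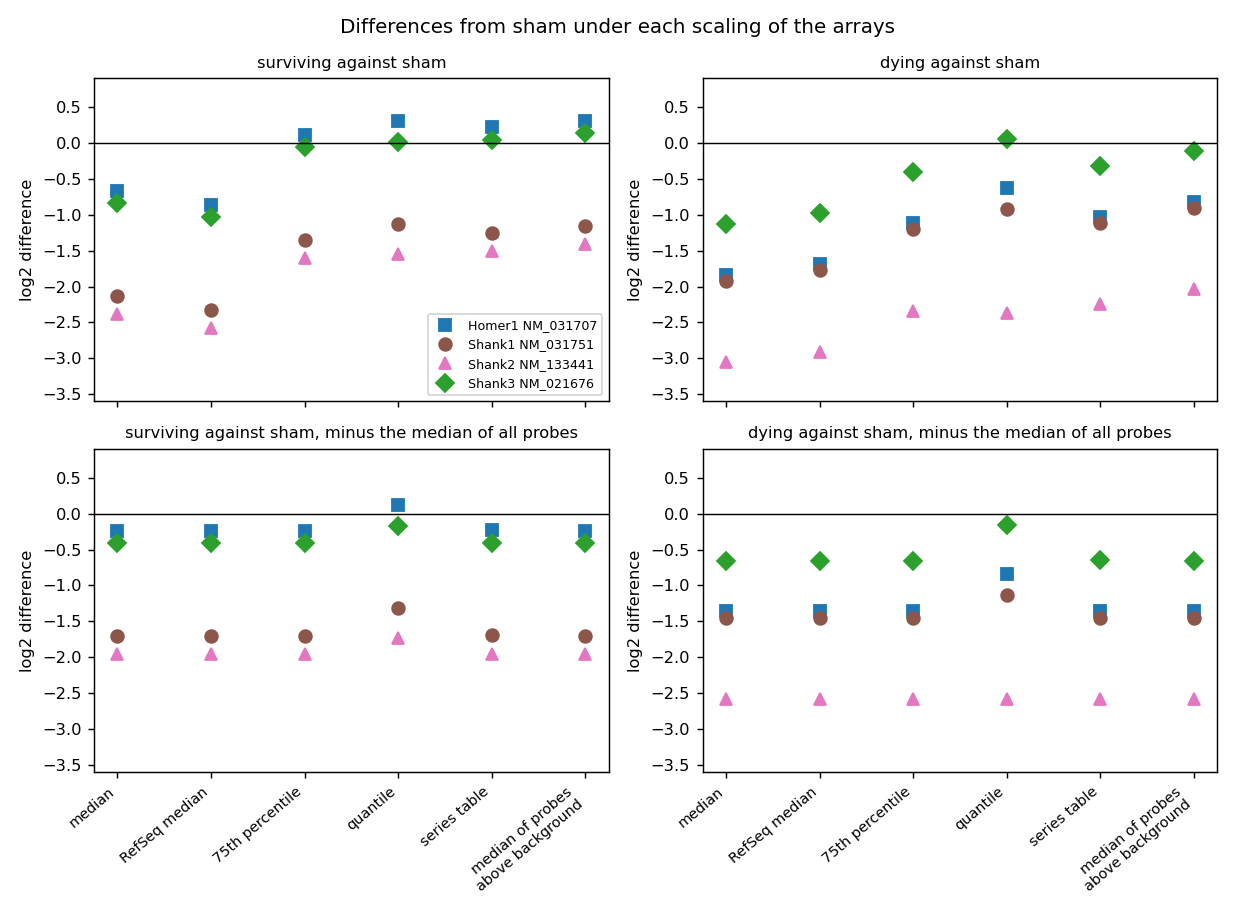
Log2 differences from sham of the 4 probes above background on all 8 arrays under 6 scalings of the arrays, as measured in the upper panels and after subtracting the median of all probes tested in the lower ones. Shank2 stayed between -2.58 and -1.41 in surviving neurons, whereas Homer1 ran from -0.86 to 0.31 and Shank3 from -1.04 to 0.14, crossing 0 between scalings.

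Markers of oligodendrocytes, summed, were also lowest in injured rats. All 6 markers summed were above background on all 8 arrays, Mog was the brightest, and the log2 of their summed signal was 7.51 and 8.18 for naïve, 8.0 and 8.37 for sham, 6.02 and 6.13 for surviving and 7.50 and 6.26 for dying neurons. Dying replicate 1 stood next to naïve replicate 1, with Mog at 7.07 on this array, and the other 3 arrays of injured rats lay below the controls. The genes differed, as seen in a pair named after their values were seen: Mal lay at 0.58 to 1.69 in injured rats and at 3.55 to 4.76 in the others, and the groups of Mbp overlapped. The slide divides the arrays in the same way, and the part of these markers in the Shank values was not tested.

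Markers of pyramidal neurons, of which 7 of 8 were above background on all arrays, were lowest in dying neurons when summed. Rbfox3 had the highest mean over all arrays and Snap25 the highest level on naïve and sham arrays, the summed signal was 10.48 and 11.24 for naïve, 11.65 and 11.33 for sham, 10.77 and 10.25 for surviving and 8.44 and 9.96 for dying neurons, and Grik4, a kainate receptor subunit of CA3 cells, was not above background on dying replicate 1. Not every gene followed the sum, as in a pair named after their values were seen: Neurod2 was at 3.92 and 6.13 on dying arrays and at 3.67 and 5.21 on naïve ones, and Slc17a7 on dying replicate 2 (2.3) was above both surviving arrays (1.89 and 1.88). Markers of microglia and macrophages were highest in dying neurons when summed, though Aif1 and Csf1r, named after their values were seen, were not above sham there (dying minus sham -0.15 and -0.35). The summed signal of 9 of the 10 genes, of which C1qa had the highest mean over all arrays and C1qb the highest level in dying neurons, was 6.91 and 7.98 for naïve, 8.04 and 7.92 for sham, 8.26 and 8.40 for surviving and 10.92 and 10.05 for dying neurons, and 6 of the 10 were above background on all arrays, the others being Itgam, Cx3cr1, Ptprc and Lgals3. Lgals3 had no value on dying replicate 2 and was left out of the sum. It was above background on the 7 arrays that gave it a value, at 8.82 on dying replicate 1. The part of these lists in the Homer and Dlg values was not tested.

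Astrocyte markers, all but S100b (7 of 8) above background on all arrays and Slc1a3 the brightest, summed to 9.70 and 10.01 for naïve, 10.57 and 10.02 for sham, 9.22 and 9.27 for surviving and 10.06 and 9.1 for dying neurons. Endothelial and pericyte markers, summed over 7 of 8 genes with Kdr highest in mean over all arrays, Tek above background on no array and Pecam1 and Flt1 on some, gave 6.17 and 6.80 for naïve, 6.92 and 6.54 for sham, 6.29 and 6.09 for surviving and 8.57 and 7.12 for dying neurons. Interneuron markers, all but Gad1 and Gad2 (6 of 8) above background on all arrays and Cck the brightest, summed to 10.61 and 11.20, 11.01 and 11.14, 11.25 and 11.32, and 12.77 and 10.96 in the same order. Both dying arrays were above the other 6 in the endothelial list, and only dying replicate 1 in the interneuron list, and the part of these lists in the values was not tested. Some genes went the other way, as in a pair named after their values were seen. Rgs5 was at 0.405 and -0.459 on dying arrays and at 1.124 to 3.326 on naïve and sham ones. Gad1 was lowest on the dying arrays, where it was not above background.

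**Figure D3:**
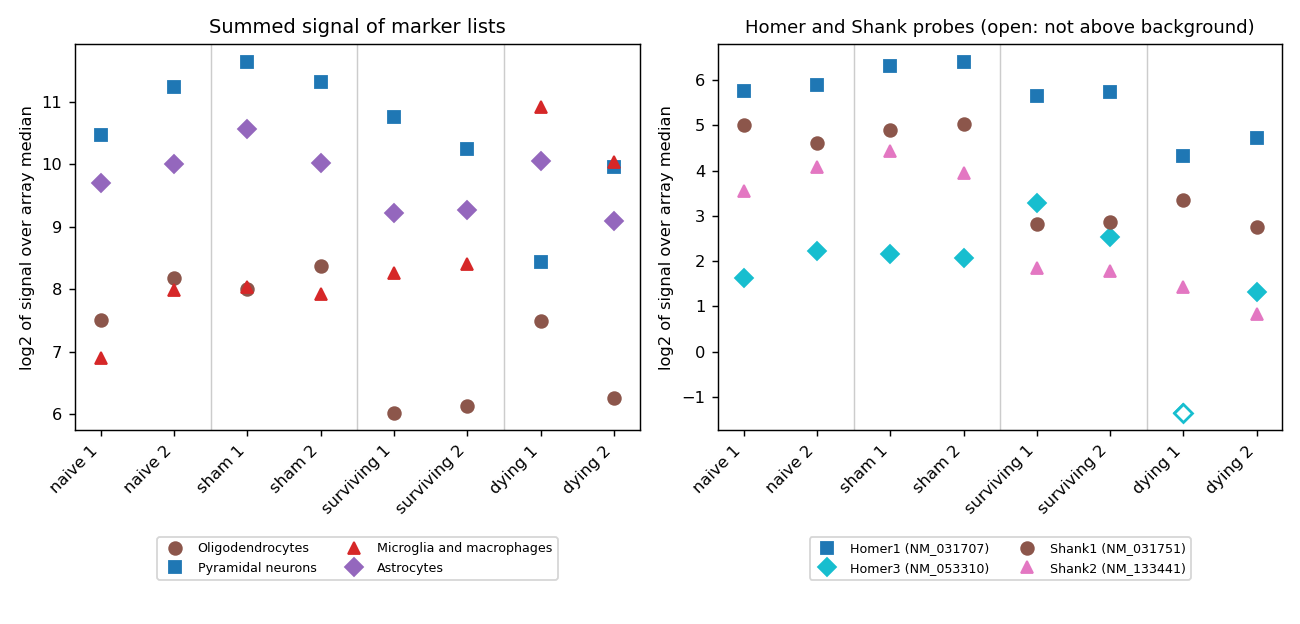
Log2 of the summed signal of 4 marker lists over the array median (left) and log2 levels of 4 Homer and Shank probes (right) on each of the 8 arrays, with an open point where a probe was not above background. Oligodendrocyte markers lay at 6.02 to 7.50 in injured rats and at 7.51 to 8.37 in the others, with dying replicate 1 next to naïve replicate 1, and microglial markers were highest in dying neurons, at 10.05 and 10.92.

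The comparison of surviving with dying neurons asks what sets apart cells of the same injured hippocampus that do or do not degenerate. Of the 9 probes tested, 7 were higher in surviving neurons and 2 (Homer2 and Shank1) lower, with a median difference of 0.92 against 0.15 for all 27393 probes, of which 55.9% were higher. With limma, 0 of the 9 were called in either direction, as were 0 of all probes (0.0%), while 5528 of all probes had an unadjusted p under 0.05. At that level 3 members were higher in surviving neurons (Homer1 NM_031707, Homer3 and Dlg2), against 10.2% of all probes, and 0 were lower, against 9.99%. Homer3 and Dlg2 entered this test through surviving neurons, where they were high, and were above background on 1 of 2 dying arrays. Shank1 turned to higher with normexp, and Shank3 to lower under 2 scalings, though relative to the median of all probes only with quantile normalization. A stricter filter, adapted here from the methods, which set the fold against sham and ask for replicates within 50%, took signal above background on all 4 arrays and replicates within 1.5-fold of each other. Of the 5 members above background on all 4 arrays only Homer1 NM_031707 also had such replicates and a difference over 2-fold, at 2.23-fold, as did 1056 of 21262 probes.

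Against sham, which asks how neurons of either kind in injured rats differ from those of uninjured tissue, 2 of 8 member probes were called lower in surviving neurons (Shank1 and Shank2) and 0 higher, beside 9.95% and 5.55% of 26909 probes. The median member difference was -0.94, against -0.43 for all probes. In dying neurons, 5 of 9 were called lower (both Homer1 probes, Dlg2, Shank1 and Shank2) and 0 higher, beside 26.9% and 13.2% of 25628 probes, with a median of -1.92 against -0.47. Both comparisons share the sham arrays, and whether the members differ between them was tested only as surviving against dying. Side by side, surviving and dying neurons differed from sham by -2.38 and -3.06 for Shank2, -2.13 and -1.92 for Shank1, and -0.66 and -1.83 for Homer1 NM_031707. The counts called lower were 1 and 2 with the 75th percentile, 1 and 1 with quantile normalization, and 0 in both with normexp. Of all 26909 and 25628 probes, 1338 and 4495 were called lower with the 75th percentile, and 1658 and 4077 with quantile normalization. With normexp 0 of all probes were called in both, so that the 0 members called there say nothing of the members.

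Sham against naïve asks what the surgery alone changes. All 7 members tested were higher in sham, as were 76.7% of all 20679 probes, with a median of 0.37 against 0.41 for all, and 4 of the 7 lay below that median. Homer3, Shank1, Shank2 and Shank3 turned lower under some scalings, and relative to that median they were -0.22, -0.24, -0.03 and -0.20, which turned for the Shank probes with normexp (0.28 to 0.56) and in some fits without an array (0.01 to 0.33), and for Homer3 in none. With limma, 0 members were called, as were 0 of all probes (0.0%), of which 819 had an unadjusted p under 0.05. At that level 0 members were higher, against 3.27% of all probes, and 0 lower, against 0.687%.

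**Figure D4:**
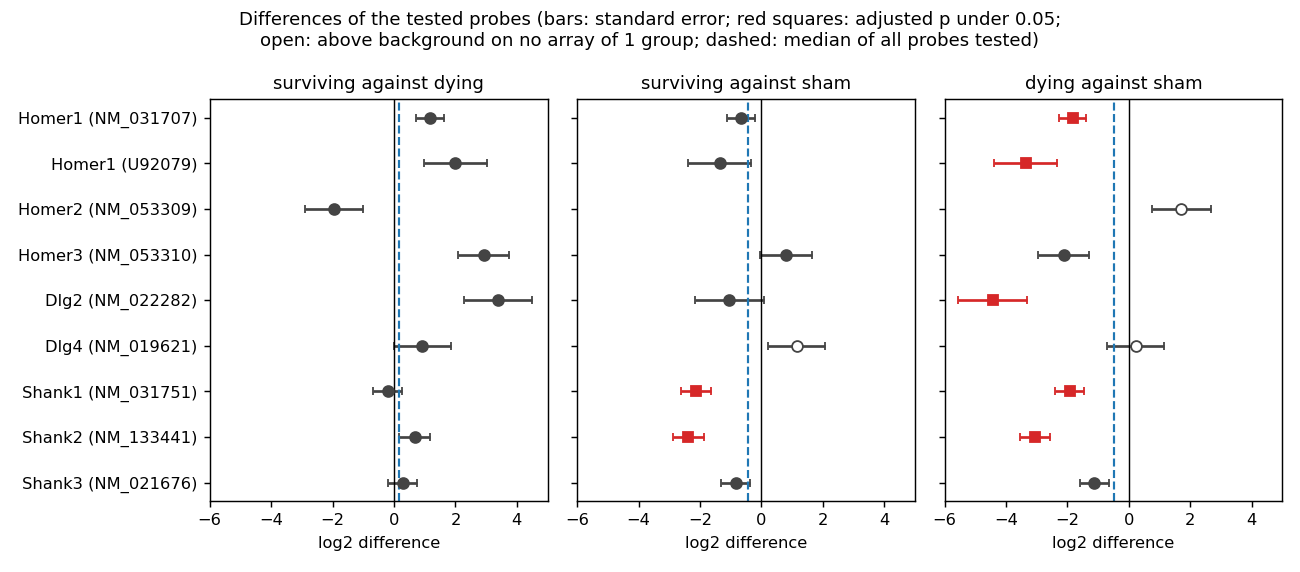
Log2 differences of the tested probes with standard errors in 3 comparisons, with red squares for an adjusted p under 0.05, open circles where 1 group had the probe above background on no array, and a dashed line at the median of all probes tested. Shank1 and Shank2 were called in both comparisons with sham (-2.13 and -1.92, -2.38 and -3.06), calls that only Shank2 kept under every scaling, and no probe was called between surviving and dying neurons.

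Of 56 partner genes whose proteins bind or neighbour these scaffolds, 52 had a probe, the exceptions being Adam22, Magi1, Iqsec1 and Iqsec2. Between surviving and dying neurons 40 of the 48 tested were higher in surviving neurons and 8 lower, beside 55.9% of all probes higher, with a median of 0.70, and 0 were called, with 8 higher and 0 lower at an unadjusted p under 0.05, beside 10.2% and 9.99% of all probes. In dying neurons against sham, 2 of 44 were called higher and 16 lower, beside 13.2% and 26.9% of all probes (median -1.53, 27 of the 44 below the median of all probes). In surviving neurons 1 of 48 was called higher and 3 lower, beside 5.55% and 9.95% (median -0.19, 23 of 48 below). Sham against naïve called 0 of 38, with 0 at an unadjusted p under 0.05. The counts against sham were taken under the scaling to the array median alone.

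Among 8 receptors, 7 were tested between surviving and dying neurons and 6 were higher in surviving ones, with a median of 0.94. Gria2, the subunit that limits calcium entry through AMPA receptors, stood at 6.95 and 7.03 for naïve, 8.26 and 7.74 for sham, 4.77 and 4.29 for surviving and 2.46 and 3.15 for dying neurons. The 4 groups did not overlap. It fell against sham by a difference of -3.47 in surviving (adjusted p = 0.00728) and -5.20 in dying neurons (adjusted p = 0.00106), and surviving minus dying was 1.73 (SE 0.50, adjusted p = 0.149). Gria3 differed by 2.90 as measured (SE 1.51, adjusted p = 0.319), and by 0.21 without dying replicate 1 (adjusted p = 0.954), which did not measure it.

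Auxiliary and adhesion proteins had 8 of 9 genes higher in surviving than in dying neurons, with a median of 1.27. Nlgn1, a postsynaptic adhesion protein held by Dlg PDZ domains, was at 4.99 and 5.43 for naïve, 6.21 and 5.67 for sham, 3.72 and 3.21 for surviving and -0.55 and 2.0 for dying neurons, and surviving minus dying was 2.74 (SE 0.80, adjusted p = 0.149), or 1.46 without dying replicate 1 (adjusted p = 0.334). Cacng3, an auxiliary subunit of AMPA receptors, differed by 2.14 (SE 0.68, adjusted p = 0.161). Both fell in dying neurons against sham, by differences of -5.21 (adjusted p = 0.00390) and -3.62 (adjusted p = 0.00670). The genes called higher against sham, picked for naming after their values were seen, were Cacng8 in surviving (2.80, adjusted p = 0.0223) and dying neurons (1.94, adjusted p = 0.0329), with 1 of 2 sham arrays above background, and Nlgn3 in dying neurons (1.77, adjusted p = 0.0245).

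Linkers and other scaffolds were the group nearest to the rest of the array, with 13 of 18 higher in surviving than in dying neurons and a median of 0.36 against 0.15 for all probes. Magi2, above background on both surviving and on 0 of 2 dying arrays, had an adjusted p of 0.384, and Lin7b differed by 0.83 (SE 0.65, adjusted p = 0.509). Lin7b was at 8.51 and 7.99 for surviving against 8.19 and 6.65 for dying neurons, so that these groups overlapped and dying replicate 2 stood lowest. Of enzymes, GTPase regulators and actin partners 9 of 10 were higher, with a median of 1.05, among them Cnksr2 with 1.59 (SE 0.59, adjusted p = 0.199) and Synpo with 1.36 (SE 0.51, adjusted p = 0.202). Cnksr2 was at 4.95 and 4.65 for surviving against 2.565 and 3.855 for dying neurons, so that dying replicate 1 carried much of its difference. Synpo, an actin partner of the spine, was at 1.18 and 0.52 for naïve, 0.92 and 0.67 for sham, 2.64 and 2.22 for surviving and 1.41 and 0.74 for dying neurons, so that the surviving arrays stood above all others, as for Homer3.

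All 4 calcium channels bound by Homer were higher in surviving than in dying neurons, with a median of 1.19. Trpc1, a cation channel of the plasma membrane, was at 7.25 and 7.69 for naïve, 8.19 and 7.91 for sham, 6.85 and 6.77 for surviving and 5.11 and 5.53 for dying neurons, without overlap between groups. Surviving minus dying was 1.49 (SE 0.47, adjusted p = 0.160), and Trpc1 fell in dying neurons against sham, by a difference of -2.73 (adjusted p = 0.00524). Ryr2 is also named, although its p was not among the 2 smallest of its role. It was at 6.23 and 5.12 for surviving against 3.41 and 6.13 for dying neurons. These groups overlapped, so that Ryr2 was higher through dying replicate 1. Ryr1 differed by 1.5 between surviving and dying neurons (SE 1.24, adjusted p = 0.530), and by -0.24 without dying replicate 1, which did not measure it. Among the partners called lower in surviving neurons against sham were, besides Gria2, the inositol trisphosphate receptor Itpr1 (-1.93, adjusted p = 0.0324) and Kalrn (-1.93, adjusted p = 0.0329), both named after their values were seen.

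**Figure D5:**
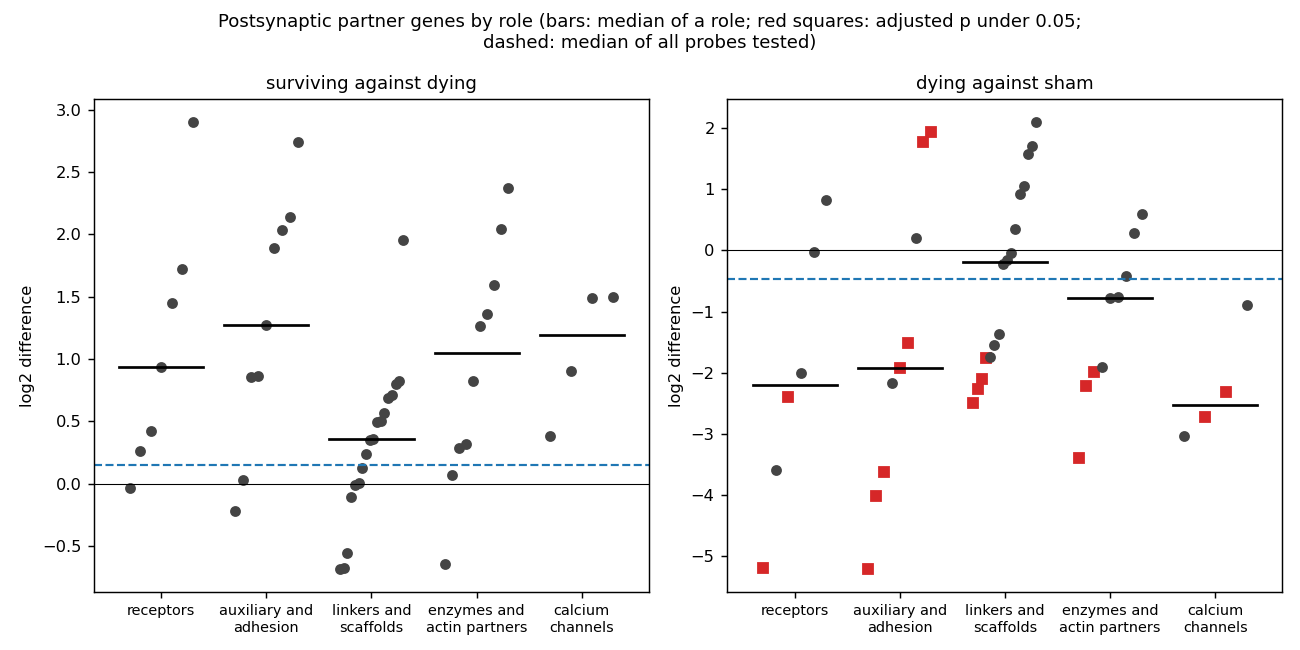
Log2 differences of the tested partner genes by role, 1 point per gene, with a bar at the median of a role, red squares for an adjusted p under 0.05 and a dashed line at the median of all probes tested (0.15 and -0.47). Medians between surviving and dying neurons ran from 0.36 for linkers and scaffolds to 1.27 for auxiliary and adhesion proteins, and no gene was called there.

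The genes whose levels ran most like those of a member over the 8 arrays were sought among 6533 named probes above background on all of them, for 1 member of each family. For Homer1 these were Wdr35 (Pearson's r = 0.992), Nrn1 (0.986) and Pts (0.985). Nrn1, which encodes the neurite growth factor neuritin, was at 5.79 and 6.42 for naïve, 7.08 and 6.71 for sham, 5.74 and 5.83 for surviving and 3.58 and 4.01 for dying neurons. For Dlg2 they were Polr3d (0.996), Bok (0.995) and Moap1 (0.995), and these values include dying replicate 1, where Dlg2 was not above background. For Shank3 they were Carm1 (0.987), Pygm (0.984) and Atp5pd (0.983). The arrays share slides and groups, the genes were picked from many, and the values are descriptions.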

How the data were processed

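RNA of 8 pools of captured neurons was measured on 1-colour Agilent arrays, 2 per group. Processed intensities come, per the file headers, from Agilent Feature Extraction 9.1.3.1 as run by the authors, which worked by subtracting background and spatial trends, without scaling between arrays. The files also hold, as deposited, mean spot intensities, local background intensities and marks of spot quality. For the deposited series table, the authors divided the processed signal of an array by 1 constant and set a floor, as a comparison of both showed, which gives its signal values. The medians of these columns were 0.218 and 0.149 (naïve), 0.131 and 0.149 (sham), 0.256 and 0.259 (surviving) and 0.212 and 0.282 (dying), their scale is linear with no centring of genes, while the study's methods name division by array medians and by gene medians. The constants (91.4 to 205) are not the medians of all probes (16.4 to 53.0), and which probes set them is not given in the sources used here. The labels name 2 amplification kits as alternatives, the study's methods name MessageAMP II, and the kit of each array is not given.

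Spots marked non-uniform were dropped, the remaining ones averaged per probe and divided by the median of their array, 0.01 was the floor, and log2 values were used. In limma 3.58.1 (R 4.3.3), 1 model with 4 group means took all 8 arrays, and a comparison tested the probes that either of its groups had well above background on both arrays, with two-sided p-values adjusted by Benjamini-Hochberg within a comparison. Every member probe is reported, with values on each array where it could be tested. From a list of partners the 2 of each role with the smallest p between surviving and dying neurons are named, each gene by its brightest probe, and for likeness the 3 named genes of highest r. Accessions of 12 of the 13 probes were found in the RefSeq table. Marker lists covered pyramidal neurons, microglia and macrophages, astrocytes, oligodendrocytes, endothelium and pericytes, and interneurons, and were summed over genes with a value on all arrays. From the oligodendrocyte list, 1 gene is not reported here and was left out of the sum. The members and lists were chosen with earlier results of these data known. Alternatives were other scalings, normexp, the series values, floors, filters, blocks, weights and leaving out each array.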

Additional observations from a re-analysis of the deposited data

How the results depend on the processing

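Of the alternatives run for single probes, 665 were counted as the same, 62 lost a call, 9 gained one and 38 changed sign. The same meant that direction and side of the threshold were kept. For the Homer2 fold of dying neurons over sham, which has no threshold, it meant a value near the main one, and this fold moved in 1 setting. Only 4 of 13 member probes were measured on every array, which limits what can be said of the others, and the cause of the changes below was not tested. In fits without an array, the lone array left in a group is assumed to vary like the others.

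Called members between surviving and dying neurons numbered 0, and 0 to 3 without 1 array. For all probes the number was 0, 2 with the series values and 0 to 5043 without 1 array. The filter adapted from the methods, which makes no test, was passed by 1 member and by 1056 of all probes. In surviving neurons against sham, 2 members were called, and 1 with the 75th percentile, quantile normalization, the series values and the median of probes above background on all 8 arrays (chosen after the data were seen), 0 with normexp and 0 without any array. All probes gave 4171 calls, and 0 with normexp, 6400 with the scaling added later, 1608 with the filter on all 4 arrays, 10461 with only the 4 arrays compared, which are not all on 1 slide, 11239 with array weights and 230 to 415 without 1 array. In dying neurons against sham, 5 members were called, and 2 with the 75th percentile and the series values, 1 with quantile normalization and the added scaling, 0 with normexp, 3 of 4 tested with the filter on all 4 arrays, and 0 to 6 without 1 array. All probes gave 10289 calls, 0 with normexp, 5357 with the filter on all 4 arrays and 1798 to 12517 without 1 array. For sham against naïve, all probes gave 0 calls, 1 with quantile normalization and 0 to 1 without 1 array.

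With the replicate block, 2646 probes were called between surviving neurons and sham. The numbers were not shown to pair the arrays, since there are 2 per group and the deviations of same-numbered arrays correlated between groups at r = -0.19 to 0.07 over 15254 probes. The block changed no call of a Homer, Dlg or Shank probe, and ended that of TC537662 in surviving neurons against sham (adjusted p = 0.0848).

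Of the probes called in surviving neurons against sham, 35.8% were higher (1493 against 2678), and 74.3% with the 75th percentile (3867 against 1338), 58.9% with quantile normalization (2374 against 1658), 24.8% with RefSeq probes (867 against 2622), 75.8% with the series values (4349 against 1386) and 78.2% with the added scaling (5006 against 1394). In dying neurons the share was 32.9% (3389 against 6900), and 59.6% (6619 against 4495), 56.1% (5201 against 4077), 63.2% with the series values (7225 against 4208) and 68.3% with the added scaling (8191 against 3808). With the filter on all 4 arrays the shares were 5.53% (89 against 1519) for surviving and 11.6% (621 against 4736) for dying neurons, and without 1 array they were 3.91% to 7.23% and 21.4% to 39.7%.

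With the 75th percentile, Homer1 NM_031707 changed sign in surviving neurons against sham (0.11), and between sham and naïve so did Homer3 (-0.12), Shank1 (-0.14) and Shank3 (-0.10). With quantile normalization the changes were in Homer1 (0.31) and Shank3 (0.008) in surviving neurons against sham, Dlg4 (-0.068) and Shank3 (0.054) in dying neurons against sham, Shank3 (-0.046) and TC537662 (-0.11) between surviving and dying neurons, and Shank1 (-0.28), Shank2 (-0.049) and Shank3 (-0.29) between sham and naïve. RefSeq scaling turned Shank3 (-0.061) and TC537662 (-0.18) between surviving and dying neurons. Normexp turned Homer1 (0.46), Dlg2 (0.14) and Shank3 (0.43) in surviving and Dlg4 (-0.062) in dying neurons against sham, Shank1 (0.75) between surviving and dying neurons, and the change of the Homer1 probe difference, dying minus surviving, from 0.83 to -1.49. Without 1 array that last value ran from -0.78 to 2.43, and it is no measured difference, since U92079 was not above background on dying replicate 1. The series values turned Homer1 (0.22) and Shank3 (0.043) in surviving neurons against sham, and Homer3 (-0.18), Shank1 (-0.20) and Shank3 (-0.16) between sham and naïve. The added scaling turned Homer1 (0.31) and Shank3 (0.14) in surviving neurons against sham, and Homer3 (-0.28), Shank1 (-0.30), Shank2 (-0.086) and Shank3 (-0.26) between sham and naïve.

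Without 1 array, sham minus naïve ran from -0.12 to 0.49 for Homer3, -0.039 to 0.36 for Shank1 and -0.093 to 0.50 for Shank3, and dying minus sham from -0.30 to 0.75 for Dlg4. Without dying replicate 2, Gria2 (2.07), Gria3 (5.59), Nlgn1 (4.02) and Cnksr2 (2.24) were called between surviving and dying neurons. That difference ran from -0.50 to 0.081 for Shank1, -0.012 to 0.35 for TC537662 and -0.24 to 3.23 for Ryr1.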
